A study of Homo sapiens with 10 samples.

Results

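The 9 genes described here encode the cohesin complex, the factors that load and release it, and the chromatin proteins CTCF and SMCHD1. They were chosen by name as genes of genome architecture that control the choice of protocadherin promoters and their loops, and are CTCF, RAD21, SMC1A, SMC3, STAG1, STAG2, NIPBL, WAPL and SMCHD1. All 9 were found among the 24050 genes listed in either count table. RNA sequencing (RNA-seq) was performed on 10 libraries of wild-type (WT) and ZNF274 knockout (KO) human cells. In HEK293T, a line derived from human embryonic kidney, there were 3 WT libraries (S15, S16 and S17) and 3 KO libraries (S18, S19 and S20). In neural progenitor cells (NPCs) differentiated from H1 human embryonic stem cells (ESCs) through embryoid bodies there were 2 libraries of WT (S3, S5) and 2 of KO cells (S1, S2). The KO groups carry a CRISPR-Cas9 deletion of ZNF274, made with guides on either side of the gene in HEK293T cells and in ESCs, and the WT groups do not. The design text speaks of independent clones, and the study's text gives NPC values as averages over a pair of parental lines, but no label says which clone or line a library comes from. The p-values therefore measure the spread between these libraries, which may in part be technical. In NPCs the deletion was present from the ESC stage on, through neural induction.

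Cohesin is a ring formed by the ATPases SMC1A and SMC3 and the kleisin RAD21, to which STAG1 or STAG2 is bound as alternative subunits. NIPBL loads the ring onto chromatin and drives the extrusion of loops, and WAPL releases it. CTCF, a zinc finger protein, stops extruding cohesin at its binding sites and so sets loop anchors. SMCHD1 is a noncanonical SMC protein known for the silencing of the inactive X chromosome and of clustered genes, the protocadherins among them. In neurons, CTCF and cohesin bring a protocadherin promoter to a distant enhancer, and the same ring holds sister chromatids together in dividing cells.

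The genes lie on chromosomes 16 (CTCF), 8 (RAD21), X (SMC1A and STAG2), 10 (SMC3 and WAPL), 3 (STAG1), 5 (NIPBL) and 18 (SMCHD1). SMC3 spans chr10:112327442-112365806 on the plus strand and SMC1A spans chrX:53401070-53449677 on the minus strand in hg19, the build of the tables. A RefSeq promoter sequence (GRCh38.p14) was matched by symbol for 8 of the 9 genes, all but RAD21. The windows of SMC3 and SMC1A are shown because these were the members whose mRNA differed both between KO and WT NPCs and between the cell types in the KO effect. Each is the run of 250 bases before an annotated start, 5′ to 3′ on the strand of the gene, and the capitals mark the motif found by letters on the opposite strand. In SMC3 (chr10:110567445-110567694, plus strand) it is the letters of a cell cycle homology region (CHR, TTTGAA), and in SMC1A (chrX:53422655-53422904, minus strand) it is a core of the E2F motif (GCGGGAA).
SMC3: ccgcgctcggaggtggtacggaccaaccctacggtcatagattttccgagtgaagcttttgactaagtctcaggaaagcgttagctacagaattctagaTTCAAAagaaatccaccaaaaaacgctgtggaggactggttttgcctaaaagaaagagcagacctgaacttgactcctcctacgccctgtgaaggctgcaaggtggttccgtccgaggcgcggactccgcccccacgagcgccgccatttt
SMC1A: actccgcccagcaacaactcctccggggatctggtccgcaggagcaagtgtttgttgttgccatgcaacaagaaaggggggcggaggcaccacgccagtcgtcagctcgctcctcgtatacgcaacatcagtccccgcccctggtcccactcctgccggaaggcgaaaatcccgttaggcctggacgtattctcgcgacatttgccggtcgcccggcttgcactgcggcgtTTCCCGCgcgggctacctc
The motifs, 3 in all, were searched on both strands, and none holds the letters of another. The CHR letters were found in 13.3% of all 35116 promoter windows of this length and, among the members, in CTCF and SMC3. The E2F core was found in 5.52% of all windows and in SMC1A and STAG1, and the CCAAT box (CCAAT) in 32.0% of all windows and in STAG1, STAG2 and WAPL. The windows of NIPBL and SMCHD1, that of the other annotated start of SMC1A and 1 of the 3 windows of STAG2 held none of these motifs. These matches describe letters in a window and were not tested as binding sites. The GC content of the members' windows ran from 52.8% in SMC3 to 77.2% in SMCHD1 and WAPL, against a median of 58% over all windows.

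Libraries held 21421013 to 32285876 counts on genes in HEK293T cells and 18621266 to 23035490 in NPCs, and each member had 1291 to 18579 counts in every library. ZNF274 had 445, 423 and 492 counts in the WT HEK293T libraries, 491 and 496 in the WT NPC libraries and 0 in all KO libraries. Levels are given as CPM, the count relative to the normalized library size, on which 3 counts, the most that a count of 0 allows, correspond to 0.0915 to 0.149 in the KO libraries. The KO library S18 differed most from others of its group, with a chi-square of 72.0 and 81.9 per degree of freedom against S20 and S19, where the other pairs within groups ranged from 10.5 to 45.5. Of 20 neural progenitor genes, all had counts in WT NPCs, but HES5 and NEUROG2 were among those with none in KO NPCs, and the summed level of the list was 10970 to 11160 CPM in WT and 10070 to 10710 CPM in KO. Most of that sum came from VIM (7050 and 5812 CPM in WT, 7144 and 6568 CPM in KO) and NES (2274 and 3001 CPM in WT, 3208 and 3146 CPM in KO), while the median log2 FC of the list was -2.73. SOX2, a transcription factor of neural stem cells, fell from 228 and 219.5 CPM in WT to 12.8 and 21.5 CPM in KO, and PAX6, another such factor, from 88.3 and 78.6 CPM to 25.8 and 42.6 CPM, these 4 genes being named after their values were seen. HES5 and NEUROG2 were low in WT too, with 3 to 34 counts. The sum over 18 mesenchymal genes was 2949 to 3670 CPM in WT NPCs and 10820 to 12450 CPM in KO NPCs, with TWIST2 at 0 counts in both groups. In HEK293T cells the kidney development list summed to 98.8 to 130.4 CPM, and its members PAX8 and OSR1 had no counts in the WT libraries. In bulk RNA, fewer cells of a type and less RNA per cell cannot be told apart.

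All 9 members were expressed in both cell types, and in WT cells SMC1A, SMC3 and RAD21 were above the loader NIPBL per length. In WT HEK293T cells, SMC1A had the highest level per length, 45.7 ± 3.60 CPM per kb of union exon length (SD, n = 3), followed by RAD21 with 18.9 ± 2.92, CTCF with 15.8 ± 0.678, STAG2 with 15.4 ± 2.85 and WAPL with 15.3 ± 1.32. SMC3 followed with 13.8 ± 1.61 CPM per kb, STAG1 with 12.3 ± 0.570, NIPBL with 6.67 ± 0.501 and SMCHD1 with 3.82 ± 0.591. The ranges over libraries of CTCF, STAG2, WAPL and SMC3 overlapped, RAD21 also overlapped with STAG2 and WAPL, and STAG1 with SMC3 and STAG2, whereas SMC1A, NIPBL and SMCHD1 stood apart from their neighbours in the order. In WT NPCs the order began with SMC1A (24.4 ± 0.553 CPM per kb, n = 2) and RAD21 (22.6 ± 4.26), whose ranges overlapped, then WAPL (15.2 ± 1.41), SMC3 (13.4 ± 0.537), NIPBL (11.3 ± 0.0420) and CTCF (10.4 ± 0.512). STAG1 (9.57 ± 1.73 CPM per kb) and STAG2 (9.15 ± 0.438) overlapped with each other, STAG1 also with CTCF, and SMCHD1 was lowest (5.70 ± 0.539). SMC1A thus lay at percentile 94.4 and SMCHD1 at percentile 61.4 of the 18468 HEK293T genes with a length.

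The order depends on the length used. With the length of the canonical transcript instead, RAD21 was first in both cell types, with 74.2 ± 11.5 CPM per kb in WT HEK293T cells and 89.0 ± 16.7 in WT NPCs, and SMC1A had 50.9 ± 4.01 and 27.2 ± 0.616. On that scale NIPBL had the lowest mean in WT HEK293T cells (8.01 ± 0.602 CPM per kb) and STAG1 in WT NPCs (12.4 ± 2.24). In WT NPCs the range of STAG1 overlapped with NIPBL, which had a mean of 13.5 CPM per kb. A comparison of the same gene between groups is not touched by this choice.

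**Figure D1:**
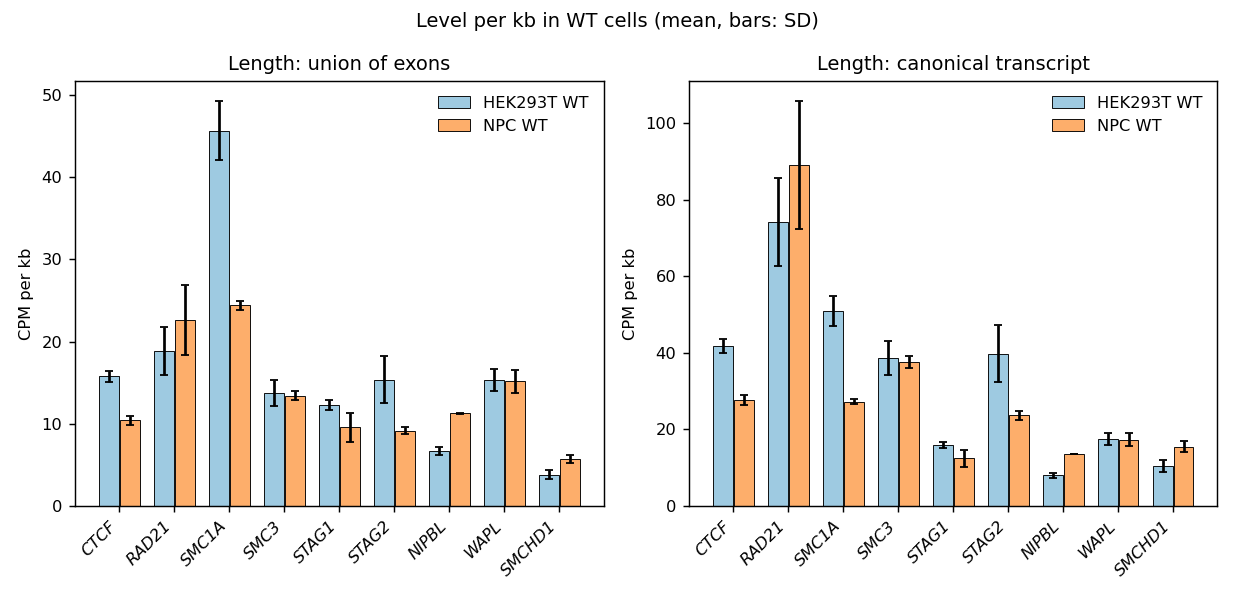
Mean level of each gene in CPM per kb (vertical axes) in WT HEK293T cells (blue, n = 3) and WT NPCs (orange, n = 2), with the SD as error bars, on the union of exons (left) and on the canonical transcript (right). SMC1A is highest on the left axis and RAD21 on the right, at 74.2 and 89.0 CPM per kb.

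The levels of 5 members differed between WT NPCs and WT HEK293T cells. SMC1A, STAG2 and CTCF were lower in NPCs, and NIPBL and SMCHD1 were higher. Cell type, cell origin, gene copy number and the preparation of each set of libraries cannot be told apart here. Each set holds 1 cell type. The paper describes HEK293T cells as triploid, and SMC1A and STAG2 lie on the X chromosome. At an adjusted p below 0.05 (edgeR's quasi-likelihood test, all 10 libraries), 25.4% of the 19255 genes tested were lower in NPCs and 31.4% were higher, so that 3 of 9 members lower and 2 of 9 higher is close to the share over all genes.

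SMC1A had 488, 536 and 459 CPM in the WT HEK293T libraries S15, S16 and S17, and 260 and 269 CPM in the WT NPC libraries S3 and S5. The groups did not overlap, and the difference was a log2 fold change (FC) of -0.91 (SE 0.122, adjusted p = 4.57e-05). STAG2, the more abundant of the alternative subunits on the canonical length, had 205, 295 and 238 CPM in WT HEK293T cells and 141 and 151 CPM in WT NPCs (log2 FC -0.75, SE 0.168, adjusted p = 0.00209). STAG1 had 92.2, 101 and 96.0 CPM against 65.4 and 84.6 CPM, which also did not overlap, but its log2 FC of -0.36 had a 95% confidence interval of -0.75 to 0.023 and missed the threshold (adjusted p = 0.1). CTCF had 151.5, 162 and 164 CPM in WT HEK293T cells and 102 and 109 CPM in WT NPCs (log2 FC -0.60, SE 0.162, adjusted p = 0.00697).

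NIPBL went the other way, with 84.5, 89.2 and 76.7 CPM in the WT HEK293T libraries and 141.5 and 141 CPM in the WT NPC libraries. Both NPC libraries were above all HEK293T libraries, with a log2 FC of 0.76 (SE 0.180, adjusted p = 0.00317). SMCHD1 had 75.5, 103 and 95.5 CPM in WT HEK293T cells and 127 and 145 CPM in WT NPCs (log2 FC 0.58, SE 0.169, adjusted p = 0.0111). For RAD21 (log2 FC 0.26, 95% confidence interval -0.066 to 0.59), SMC3 (-0.039, -0.31 to 0.23) and WAPL (-0.013, -0.31 to 0.29) no difference was detected, and their WT groups overlapped. The call of CTCF was lost without the NPC library S3 (adjusted p = 0.0549) and that of SMCHD1 without S5 (adjusted p = 0.0856), whereas RAD21 was called without S16 (adjusted p = 0.0456) and STAG1 without the KO library S18 (adjusted p = 0.0418).

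**Figure D2:**
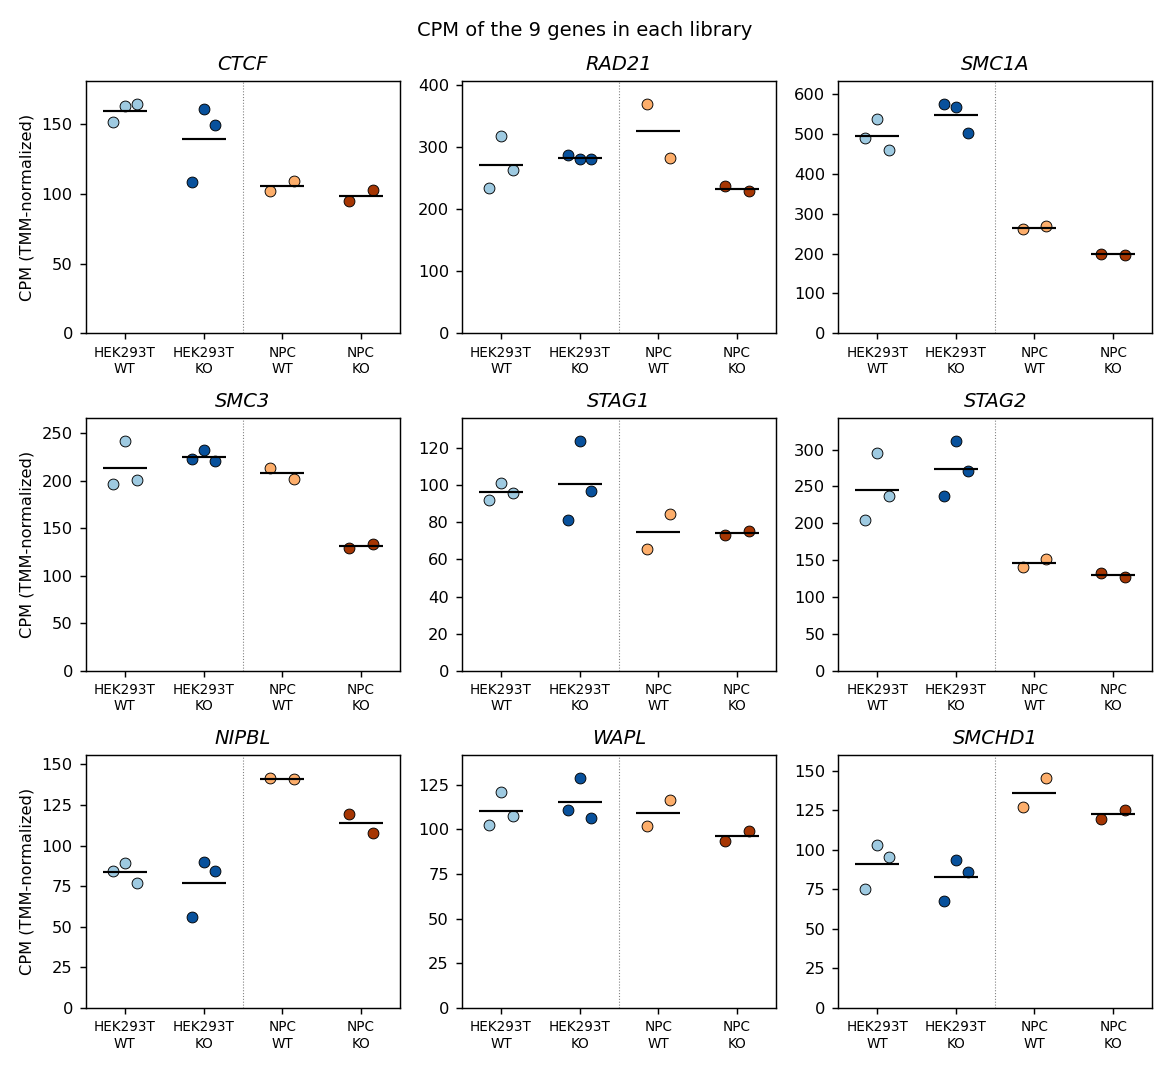
CPM of each gene (vertical axes, from 0) in every library, by group, with 1 point per library and a line at the group mean. The KO NPC libraries lie at 129.5 and 133.8 CPM for SMC3, below both WT NPC libraries, and the HEK293T groups overlap in all 9 panels.

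Deletion of ZNF274 in HEK293T cells left no detectable change in the mRNA of any member. None of the 9 passed an adjusted p below 0.05 (edgeR's quasi-likelihood test), none had an unadjusted p below 0.05, and DESeq2 and voom also called 0. Among all 19018 genes tested, 0.494% were called in this comparison. The KO and WT libraries overlapped for every member. Log2 FC were above 0 for 6 members and below 0 for 3, with a median of 0.069 against 0.011 over all genes tested.

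Among the ring subunits, SMC1A had 574, 567 and 501 CPM in the KO libraries S18, S19 and S20 (log2 FC against WT 0.15, 95% confidence interval -0.12 to 0.42, adjusted p = 0.835). SMC3 had 197, 242 and 201 CPM in the WT libraries S15, S16 and S17 and 223, 233 and 220.5 CPM in the KO libraries (log2 FC 0.085, -0.20 to 0.37). RAD21 had 235, 317 and 263 CPM in WT and 287, 280 and 281 CPM in KO (log2 FC 0.064, -0.24 to 0.37). The KO libraries of SMC3 and RAD21 lay inside the range of the WT libraries, and those of SMC1A reached above it. STAG2 had 237, 312 and 271 CPM in the KO libraries (log2 FC 0.16, -0.20 to 0.51) and STAG1 had 81.4, 124 and 97.2 CPM (log2 FC 0.069, -0.29 to 0.43), with S18 lowest and S19 highest in either case.

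NIPBL had 55.9, 90.0 and 84.6 CPM in the KO HEK293T libraries S18, S19 and S20 (log2 FC -0.11, -0.51 to 0.29), and WAPL had 111, 129 and 106.5 CPM there, against 102, 121 and 108 CPM in WT (log2 FC 0.070, -0.23 to 0.37). CTCF had 108, 160 and 149 CPM in the KO libraries (log2 FC -0.19, -0.54 to 0.16) and SMCHD1 67.7, 93.8 and 86.3 CPM (log2 FC -0.14, -0.51 to 0.23). S18 was the lowest of all 6 HEK293T libraries for CTCF, STAG1, NIPBL and SMCHD1, and S19 the highest KO library for 7 members. The intervals of the 9 members reached from -0.54 to 0.51, so that changes within them were not detectable with 3 libraries a group.

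In NPCs, the mRNA of the ring itself fell in KO cells. SMC3, SMC1A and RAD21 passed the test, and no member rose. Among all 20577 genes tested, 13.7% were lower and 15% were higher in KO NPCs at an adjusted p below 0.05 (edgeR's quasi-likelihood test), against 3 of 9 members lower. The genes tested include some with far fewer counts than the members. With edgeR's filterByExpr, which leaves out genes with few counts, 6017 of 15688 genes were called in either direction, against 5890 of 20577. With that filter 4 members were called. All 9 log2 FC were below 0, with a median of -0.20 against -0.022 over all genes tested. None of the members changed by more than 2-fold, which 16.8% of all genes did at that adjusted p.

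SMC3 had 214 CPM in S3 and 202 CPM in S5, the WT NPC libraries, and 129.5 and 134 CPM in S1 and S2, the KO libraries. Both KO libraries lay far below both WT libraries, with a log2 FC of -0.67 (SE 0.101, adjusted p = 0.00315), so that it fell by 37.3%. SMC1A, its partner in the ring, had 260 and 269 CPM in WT and 200 and 197.5 CPM in KO, again without overlap. Its log2 FC was -0.43 (SE 0.0983, adjusted p = 0.0175). The kleisin RAD21 had 369 and 282 CPM in WT and 236.5 and 229.5 CPM in KO (log2 FC -0.50, SE 0.141, adjusted p = 0.0377). Its WT libraries differed from each other by more than the lower of them differed from KO, and without the WT library S3 its log2 FC was -0.29 (adjusted p = 0.019).

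The loader NIPBL had 141.5 and 141 CPM in WT NPCs and 120 and 107.5 CPM in KO NPCs. Its log2 FC of -0.33 (95% confidence interval -0.59 to -0.068) had an unadjusted p of 0.0203 and an adjusted p of 0.0645 in edgeR's quasi-likelihood test. WAPL had 102 and 116.5 CPM in WT and 93.4 and 99.0 CPM in KO (log2 FC -0.20, -0.47 to 0.074). For both of these regulators the groups did not overlap, but the differences missed the threshold.

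Of the alternative subunits, STAG2 had 141 and 151 CPM in WT NPCs and 133 and 127 CPM in KO NPCs (log2 FC -0.18, -0.43 to 0.065), and STAG1 had 65.4 and 84.6 CPM in WT and 73.4 and 75.3 CPM in KO (log2 FC -0.029, -0.37 to 0.32). The KO libraries of STAG1 lay between its WT libraries. CTCF had 102 and 109 CPM in WT and 94.7 and 102 CPM in KO (log2 FC -0.11, -0.37 to 0.15), and SMCHD1 had 127 and 145 CPM in WT and 120 and 125.5 CPM in KO (log2 FC -0.17, -0.44 to 0.10). Both KO libraries lay below both WT libraries for 7 of 9 members, all but CTCF and STAG1, as they did for 33.2% of all genes tested.

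The calls in NPCs rested on 2 libraries a group. Without the KO library S1 none of the members was called, and SMC3 had an adjusted p of 0.0601, while without S2 SMC3 alone was called (adjusted p = 0.0463). Without the WT library S3 or S5, 5 and 4 members were called, with NIPBL added in each case and WAPL without S3. In these fits the lone library of a group is assumed to vary like the other group. The log2 FC of SMC3, SMC1A and RAD21 stayed below 0 in each of the 4.

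The levels of dividing cells' genes moved in the same NPC libraries. Of 20 S phase genes, 15 were lower in KO NPCs and none was higher, and their sum was 3634 to 3715 CPM in WT and 2440 to 2735 CPM in KO. Of 20 genes of the G2 and M phases, 19 were lower and none was higher, with a sum of 6260 to 7022 CPM in WT and 3712 to 3940 CPM in KO. Of 20 neural progenitor genes 12 were lower and 1 was higher, and of 17 mesenchymal genes tested 11 were higher and none was lower, with the sums and the genes at 0 counts given above. Over all genes tested 13.7% were lower and 15% were higher in KO NPCs. The part of the genes of these lists in the levels of the members was not tested.

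The question whether the KO effect differed between the cell types was put to the difference itself, as an interaction term over all 10 libraries. The effect was lower in NPCs for SMC3 and SMC1A, and 7.34% of all 19255 genes tested were called in this direction. The difference of log2 FC, NPC minus HEK293T, was -0.74 for SMC3 (SE 0.178, adjusted p = 0.0153) and -0.56 for SMC1A (SE 0.168, adjusted p = 0.0419) in edgeR's quasi-likelihood test. For RAD21 it was -0.54 (95% confidence interval -1.01 to -0.077, unadjusted p = 0.0259, adjusted p = 0.11), which missed the threshold.

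For the other 6 members the difference was not detected. It was -0.32 for STAG2 (95% confidence interval -0.83 to 0.18), -0.25 for WAPL (-0.67 to 0.17), -0.20 for NIPBL (-0.75 to 0.36), -0.079 for STAG1 (-0.62 to 0.46), -0.010 for SMCHD1 (-0.53 to 0.51) and 0.10 for CTCF (-0.39 to 0.59). The intervals are wide, so that these members are not shown to respond alike in the cell types. The call of SMC1A was lost without any one of S15, S17, S19, S3, S5, S1 and S2 (adjusted p 0.053 to 0.14), and that of SMC3 without S3 (adjusted p = 0.0545), S1 (0.0794) or S2 (0.062).

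**Figure D3:**
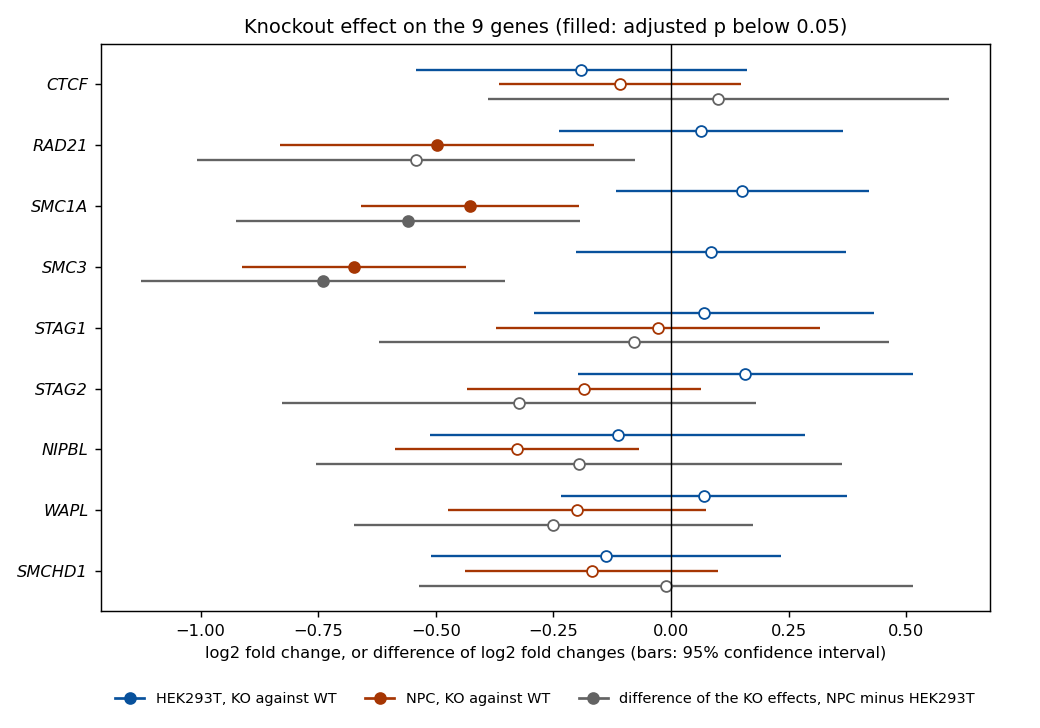
Log2 FC of each gene in KO against WT cells, in HEK293T cells (blue) and NPCs (brown), and the difference of these effects (grey), with 95% confidence intervals as bars and filled points where the adjusted p is below 0.05. SMC3, SMC1A and RAD21 are filled for NPCs, SMC3 and SMC1A for the difference, and none is filled for HEK293T cells.

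Ratios of members within a library need no scaling and compare the mRNA of paired genes, not the amounts of their proteins. They are given as log2 of counts per kb on the union length, whose choice moves the level of a ratio but not its difference between groups. The ratio of SMC1A to SMC3 was 0.80 and 0.93 in the WT NPC libraries and 1.14 and 1.08 in the KO libraries, so that SMC3 was lower relative to its partner in both KO libraries. In HEK293T cells it was 1.83, 1.67 and 1.71 in WT and 1.88, 1.80 and 1.70 in KO. The difference of KO minus WT was 0.25 in NPCs (exact two-sided permutation p = 0.333, the smallest that 2 against 2 libraries can give) and 0.060 in HEK293T cells (exact p = 0.5, where 0.1 is the smallest).

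The ratio of CTCF to RAD21 was -1.35 and -0.87 in the WT NPC libraries and -0.81 and -0.65 in the KO NPC libraries, a difference of 0.38 (exact p = 0.333), and its difference in HEK293T cells was -0.28 (exact p = 0.3). The ratio of the loader NIPBL to the releaser WAPL was higher in NPCs than in HEK293T cells in every library, at -0.33 and -0.52 in WT NPCs and -1.07 to -1.28 in WT HEK293T cells. KO minus WT was -0.13 for it in NPCs (exact p = 0.667) and -0.21 in HEK293T cells (exact p = 0.4), where S18 was lowest at -1.78. The ratio of STAG2 to STAG1 was 0.083 and -0.19 in WT NPCs and -0.17 and -0.27 in KO NPCs, and 0.12 to 0.52 in WT HEK293T cells, with differences of KO minus WT of -0.17 (exact p = 0.667) and 0.12 (exact p = 0.5). After adjustment over the 4 ratios of a cell type, the exact tests gave an adjusted p of 0.667 in NPCs and of 0.5 in HEK293T cells for each ratio, and with these numbers of libraries no ratio could have passed 0.05 in either cell type.

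**Figure D4:**
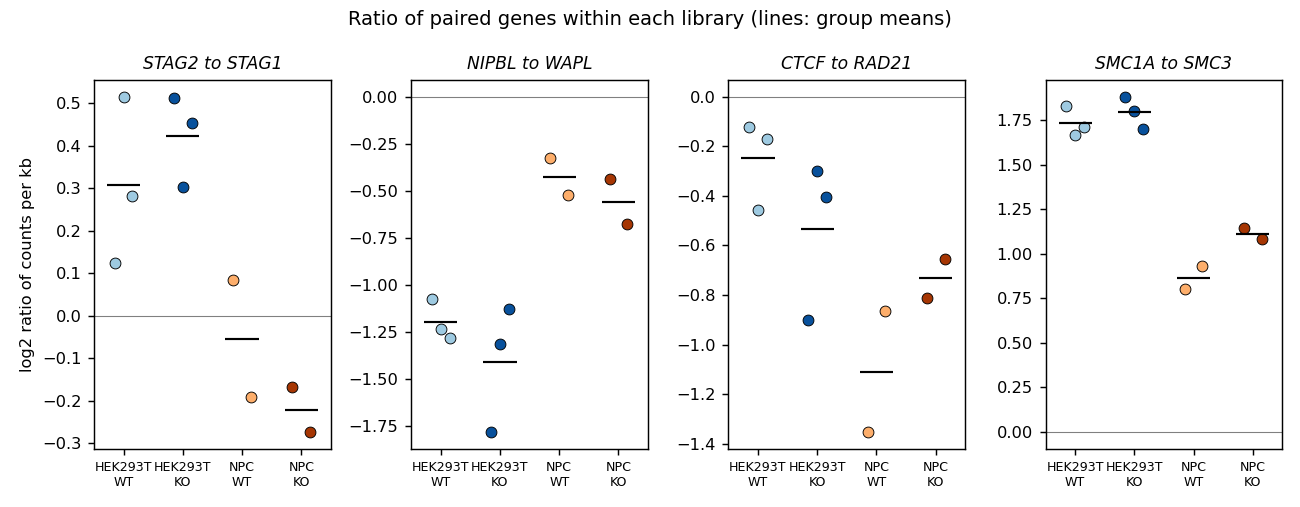
Log2 ratio of counts per kb of each pair of genes within a library (vertical axes), with 1 point per library and a line at the mean of each group. The ratio of SMC1A to SMC3 is 0.80 and 0.93 in WT NPCs and 1.14 and 1.08 in KO NPCs.

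Genes of related complexes were read from the same fits. In KO HEK293T cells none of the 37 tested was called (edgeR, 1 at an unadjusted p below 0.05, and 0 by DESeq2 or voom). In KO NPCs, 16 of 38 were lower and 2 were higher, with a median log2 FC of -0.43 against -0.022 over all genes tested. Over all genes 13.7% were lower and 15% were higher, and the counts of these lists are descriptions with no test of the list. Without the KO library S1 or S2, 5 and 9 of the 38 were called in either direction.

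Of 10 cohesin regulators, 4 were lower and 1 was higher in KO NPCs. Their log2 FC was below 0 for 9 of 10, with a median of -0.43. ESPL1, the separase that cleaves RAD21 at anaphase, had 73.2 ± 0.3335 CPM in WT and 29.4 ± 1.75 CPM in KO NPCs (SD, n = 2 each), a log2 FC of -1.33 (adjusted p = 0.000473, edgeR). CDCA5, or sororin, which protects cohesin from WAPL, fell by 0.79 on the log2 scale (adjusted p = 0.00345), and PTTG1, or securin, the inhibitor of separase, fell by 0.65 (adjusted p = 0.0229). PTTG1 has closely similar copies in the genome, which makes its count uncertain. PDS5A and PDS5B, paralogs that bind the ring together with WAPL, moved in opposite directions. PDS5A had 166 ± 6.92 CPM in WT and 121 ± 5.81 CPM in KO NPCs (log2 FC -0.47, adjusted p = 0.0147), and PDS5B had 38.1 ± 1.43 CPM in WT and 51.2 ± 0.371 CPM in KO (log2 FC 0.41, adjusted p = 0.0441).

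Condensin, the SMC complex that compacts mitotic chromosomes, had 6 of 8 genes lower in KO NPCs and none higher, with a median log2 FC of -0.58. NCAPD2 fell from 454 ± 5.75 to 212 ± 9.70 CPM (log2 FC -1.11, adjusted p = 0.000405), NCAPG by 0.73 and the ATPases SMC4 by 0.69 and SMC2 by 0.50 on the log2 scale. NCAPH fell by 0.65 and NCAPG2 by 0.41 on the log2 scale (adjusted p = 0.00586 and 0.0443, edgeR). NCAPD3 had a log2 FC of -0.22 (adjusted p = 0.236) and NCAPH2 one of -0.32 (adjusted p = 0.189). In the SMC5/6 complex, which acts in DNA repair, SMC5 (log2 FC -0.77, adjusted p = 0.00471) and NSMCE4A (-0.88, adjusted p = 0.00954) fell, whereas SMC6, the partner of SMC5, had a log2 FC of 0.24 (adjusted p = 0.158).

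Of 8 factors that bind with CTCF or at loop anchors, 3 were lower in KO NPCs. The zinc finger protein MAZ had 395 ± 6.69 CPM in WT and 179 ± 1.14 CPM in KO (log2 FC -1.16, adjusted p = 0.000333), and PATZ1, another zinc finger protein, had 99.2 ± 12.1 and 48.6 ± 0.255 CPM (log2 FC -1.04, adjusted p = 0.00141). TOP2B, the topoisomerase found at loop anchors, fell by 0.57 on the log2 scale (adjusted p = 0.0139). LRIF1, a binding partner of SMCHD1, had a log2 FC of 0.36 (adjusted p = 0.157). Of the germline paralogs, the kleisin REC8 had 65.3 and 120 CPM in WT NPCs and 41.9 and 26.8 CPM in KO (log2 FC -1.45, adjusted p = 0.0149), but at most 8 counts in each HEK293T library. CTCFL, the germline paralog of CTCF, had 0 counts in both WT NPC libraries and 7 and 10 counts in the KO libraries, a call on few reads (adjusted p = 0.0439).

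The KO effect was lower in NPCs than in HEK293T cells, by the interaction term, for 6 of the 38 genes, namely ESPL1, CDCA5, NCAPD2, NCAPG, MAZ and PATZ1, and higher for none, where 7.34% of all genes were called lower. In the WT cells, 11 of 38 were lower in NPCs and 10 were higher, close to the shares of 25.4% and 31.4% over all genes. The largest of these by log2 FC within their lists were HDAC8, the SMC3 deacetylase (log2 FC -1.20), NCAPD3 (-1.27), SMC5 (1.31), LDB1 (1.12) and REC8 (8.80).

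**Figure D5:**
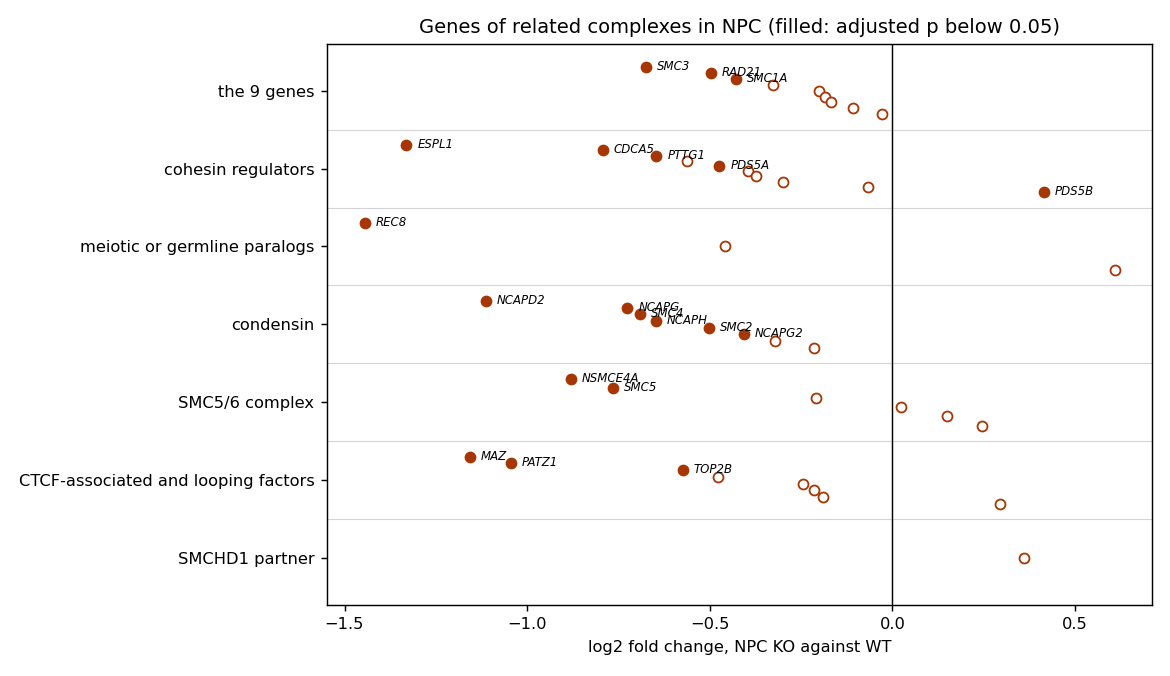
Log2 FC in KO against WT NPCs (horizontal axis) of the 9 genes and of the genes of related complexes, by list, with filled, named points at an adjusted p below 0.05. CTCFL and SMC1B, which have 0 counts in all libraries of 1 group, are left out of the picture, and ESPL1 (-1.33) and REC8 (-1.45) lie lowest.

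The pattern of members over the 10 libraries was compared with that of 9358 other protein-coding genes with a mean of at least 10 CPM. The most similar gene by Pearson's r of log2(CPM + 1) was UBQLN4 for CTCF (r = 0.99), CCDC117 for SMC1A (0.99), FAM199X for STAG2 (0.984) and TIA1 for SMCHD1 (0.979). It was KHDC4 for SMC3 (0.977), DDX3X for STAG1 (0.963), BCL11A for RAD21 (0.958) and NUP50 for WAPL (0.885), the lowest r of those given. These are descriptions over 10 points that share their cell type, genotype and library.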

How the data were processed

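RNA-seq was performed by the authors on stranded mRNA libraries of 6 HEK293T and 4 NPC samples. Per the labels and the paper's methods, the authors used hisat2 and hg19 for mapping and featureCounts for counting reads with a unique position, and deposited raw counts per gene, 1 table per cell type. The mapping of stranded data was strand-aware. Versions, the annotation and the strand setting of featureCounts are not given in the sources used here. RIBC1 overlaps SMC1A, UTP23 overlaps RAD21, PCCB overlaps STAG1, and TENM1 and STAG2-AS1 overlap STAG2, all on the opposite strand, and if counting ignored strand their reads could not be told apart.

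Groups were taken from the labels. No pair of libraries was a repeated deposit. Identifiers were matched to the GENCODE annotation lifted to hg19 (23273 of 24050). The quasi-likelihood test of edgeR 4.0.16 (R 4.3.3, TMM, Benjamini-Hochberg over all genes) was applied to the counts of each cell type by itself, leaving out genes with fewer counts in total than libraries, and over all 10 libraries for the interaction and the WT contrast. Calls were made at an adjusted p below 0.05. The study's rule also asks for a fold above 2, and its methods use voom (limma 3.58.1), run as an alternative beside DESeq2 1.42.0. CPM come from TMM factors over all 10 libraries, and FC from each comparison's own fit. Ratios within libraries were tested by exact permutation. The code was tested on simulated data.

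The members and lists were chosen with earlier results of these data known. All members were named. Of the related genes, those called were named (of more than 5 in a list, the 5 with the largest log2 FC that average 1 CPM or more), and others are given as contrasts, chosen after their values were seen. Level per canonical transcript and the fits of related genes without single libraries were added after the data were seen. Counts carry no molecular identifiers, so floors of 3 counts cover counting error only. The intervals come from the fits and also take in the spread between libraries. Protein sequences were not used here. Some genes that the naming rule selects are not reported here.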

Additional observations from a re-analysis of the deposited data

Results flagged for a closer look

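By the interaction term over all 10 libraries, the KO effect differed between NPCs and HEK293T cells for 2 members and 6 genes of related complexes. Each had a lower effect in NPCs, a direction in which 7.34% of all 19255 genes tested were called. The calls of SMC3 and SMC1A depended on single libraries, as given above. The difference of log2 FC (NPC minus HEK293T) was -0.74 for SMC3 and -0.56 for SMC1A. It was -1.60 for ESPL1, -0.76 for CDCA5, -1.08 for NCAPD2, -0.74 for NCAPG, -0.94 for MAZ and -0.95 for PATZ1. With 2 or 3 libraries a group, no group was large enough for a test of single outlying libraries.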

How the results depend on the processing

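The calls of SMC3, SMC1A and RAD21 in KO NPCs and the absence of calls in KO HEK293T cells held under DESeq2, voom, other size factors, other filters, robust estimation and 1 fit over all 10 libraries. At an adjusted p below 0.01, 1 member was called in KO NPCs and 0 for the interaction, and with a fold above 2 as well 0 were called in KO NPCs, for the interaction and between WT cells. NIPBL was also called in NPCs with library size alone (adjusted p = 0.0239) and with filterByExpr (0.0457), and RAD21 for the interaction with library size alone (0.0281). Library size alone moved the median log2 FC of all genes from -0.022 to -0.13 in NPCs and from -0.025 to -0.24 for the interaction. The related genes called for the interaction numbered 10 with DESeq2 and 11 with library size alone, against 6. Values near 0 changed sign. CTCF had -0.11 for the interaction with library size alone. Between WT cells SMC3 had 0.034 with DESeq2 and with its size factors and 0.050 with library size alone, and WAPL had 0.059 with both of the former, 0.077 with library size alone and 0.022 with filterByExpr. With single libraries left out, members called ranged from 0 to 5 in KO NPCs and from 0 to 2 for the interaction, and related genes called in KO NPCs from 5 to 24. Log2 FC that changed sign ranged, in KO HEK293T cells, from -0.029 to 0.19 for RAD21, -0.23 to 0.068 for NIPBL, -0.096 to 0.20 for STAG1 and -0.0055 to 0.14 for WAPL. They ranged from -0.20 to 0.16 for STAG1 in KO NPCs. For the interaction they ranged from -0.13 to 0.11 for SMCHD1, -0.052 to 0.18 for CTCF and -0.25 to 0.10 for STAG1, and between WT cells from -0.094 to 0.062 for SMC3 and -0.11 to 0.079 for WAPL. The cause of these changes was not tested. No paired analysis was possible because the labels tie no KO library to a WT library. Each member had at least 1291 counts in every library.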
